A study of Mus musculus with 5 samples.

Results

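The genes described here encode 10 proteins that fold, or direct the folding of, newly made proteins in the endoplasmic reticulum (ER). They were chosen by name, and all 10 were present among 12446 listed genes. They are Hspa5, Hsp90b1, Hyou1, Dnajb9, Pdia3, Pdia4, Calr, Canx, Xbp1 and Ero1l. RNA was sequenced from cardiomyocytes isolated from hearts of male C57BL/6 mice that had received adeno-associated virus vectors into the thoracic cavity at 8 weeks of age; their age is given as 12 to 14 weeks. In the OSKM-CMs group (3 libraries, replicates 1, 2 and 3) separate vectors carried Oct4, Sox2, Klf4 and Myc, each with a short protein tag and each at 2.5e10 virus genomes per gram of body weight. In the Control-CMs group (2 libraries, replicates 3 and 5) 1 vector carried blue fluorescent protein, at 10e10 virus genomes per gram. The cardiac troponin T promoter drove every vector, so expression was directed to cardiomyocytes in both groups, and control cells had also received virus. The labels do not say whether a library came from a separate mouse, so each p-value speaks of the spread among these 5 libraries, which may be technical. Values per library follow the order of replicates 1, 2 and 3 in OSKM-CMs and replicates 3 and 5 in controls.

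Secreted and membrane proteins enter the ER as unfolded chains. Hspa5 (BiP) is the Hsp70 chaperone of this compartment, Dnajb9 is a J-domain cochaperone that stimulates it, and Hyou1 exchanges its nucleotide. Hsp90b1 (Grp94) is the Hsp90 of the ER. Calr and Canx are the lectin chaperones, soluble and membrane-bound, that hold glycoproteins and calcium, and Pdia3 is the disulfide isomerase that works with them. Pdia4 is a further disulfide isomerase, and Ero1l reoxidizes members of the disulfide isomerase family. Xbp1 is a transcription factor of the unfolded protein response, the program that raises ER folding capacity when unfolded chains build up. In muscle the ER is continuous with the sarcoplasmic reticulum, the calcium store of contraction.

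Many promoters of this program carry the ER stress response element, a CCAAT box and a CCACG core 9 bases apart. Promoter windows, 250 bases before to 50 after the start, were found for 9 of the 10 genes in a RefSeq table (build GRCm38.p6). Ero1l was found under its newer symbol Ero1a. Hyou1 had no window in that table, so its promoter was not searched. The element, searched as CCAAT, any 9 bases and CCACG on both strands, was found in 4 of these 9 windows and in 0.119% of all 32851 windows in the table. Those 4 are shown because they hold the letters through which the genes are usually grouped. They lie at chr2:34771840-34772139 (plus strand) for Hspa5, chr10:86705395-86705694 (minus) for Hsp90b1, chr8:84846882-84847181 (minus) for Calr and chr11:50325624-50325923 (minus) for Canx. Each is printed 5′ to 3′ along its gene, with the element in capitals.
Hspa5: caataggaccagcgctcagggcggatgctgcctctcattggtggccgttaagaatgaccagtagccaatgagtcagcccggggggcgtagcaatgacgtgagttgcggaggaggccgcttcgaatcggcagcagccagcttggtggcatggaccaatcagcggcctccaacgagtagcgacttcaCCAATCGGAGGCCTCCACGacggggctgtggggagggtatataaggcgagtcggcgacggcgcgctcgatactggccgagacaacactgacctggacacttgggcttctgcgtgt
Hsp90b1: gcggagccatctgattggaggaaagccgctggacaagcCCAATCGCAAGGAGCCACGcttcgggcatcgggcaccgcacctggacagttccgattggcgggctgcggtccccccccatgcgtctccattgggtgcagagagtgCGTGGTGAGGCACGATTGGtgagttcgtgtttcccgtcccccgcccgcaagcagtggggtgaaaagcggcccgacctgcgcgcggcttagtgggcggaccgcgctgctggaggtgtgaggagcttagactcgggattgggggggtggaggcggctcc
Calr: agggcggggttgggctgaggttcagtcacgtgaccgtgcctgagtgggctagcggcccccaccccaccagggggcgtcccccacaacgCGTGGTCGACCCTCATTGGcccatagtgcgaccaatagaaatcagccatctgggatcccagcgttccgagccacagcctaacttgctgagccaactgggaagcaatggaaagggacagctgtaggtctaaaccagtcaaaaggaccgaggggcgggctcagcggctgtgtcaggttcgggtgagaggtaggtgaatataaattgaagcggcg
Canx: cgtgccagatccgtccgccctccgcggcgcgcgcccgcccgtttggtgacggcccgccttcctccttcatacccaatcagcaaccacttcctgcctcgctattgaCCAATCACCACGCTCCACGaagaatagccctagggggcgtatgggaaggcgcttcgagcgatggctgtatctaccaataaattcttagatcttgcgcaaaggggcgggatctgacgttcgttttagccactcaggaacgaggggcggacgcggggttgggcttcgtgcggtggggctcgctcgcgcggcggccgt
Hspa5 and Canx had the element in the direction of the gene, at -65 to -47 and at -145 to -127 from the start. Calr had it on the opposite strand at -162 to -144. Hsp90b1 had it in both directions, at -212 to -194 and at -107 to -89. The CCAAT box alone, which is part of the element and overlaps it, was in 7 of the 9 windows and in 37.4% of all windows. A second form of the element, ATTGG, any base and CCACG, was in none of the 9 and in 0.0365% of all windows. The core TGACGTGG was likewise in none of the 9, against 0.676% of all. The E-box CACGTG was in the windows of Dnajb9 and Calr and in 7.15% of all windows. These matches describe the letters and say nothing of what was bound.

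Among the 10 genes, Ero1l rose in OSKM-CMs and Dnajb9, Hyou1 and Hspa5 fell. The other 6 did not pass the test (limma on log2 of scaled RPKM plus 1, Benjamini-Hochberg adjusted p below 0.05). RPKM are reads per kilobase of gene, set against the depth of the library. Scaled here means divided by TMM factors (trimmed mean of M values), which align the bulk of genes between libraries. All 10 genes were tested, with 42 to 2588 reads per gene and library. Of all 10915 tested genes, 15.9% were called higher and 14.3% lower, 30.2% in all. The median log2 fold change of the 10 genes was -0.23, against 0.02 for all tested genes. Groups did not overlap for 7 of the 10 genes, where 57.9% of all tested genes had groups that did not overlap. Of the 10 genes, 10% were called higher and 30% lower. Without TMM, on library totals alone, limma called 3 higher and 0 lower, where 36.5% of all tested genes were higher and 5.96% lower. The share called lower thus depended on the scaling. These shares rest on few genes, so the calls are described gene by gene.

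**Figure D1:**
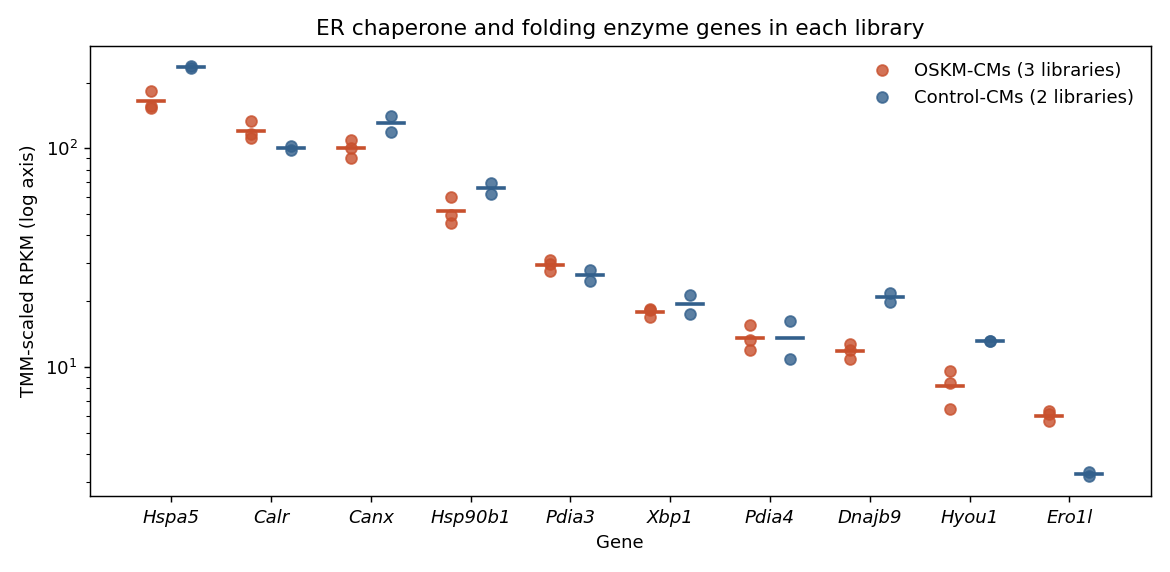
Scaled RPKM (log axis) of the 10 genes in every library, ordered by their mean in OSKM-CMs; points are libraries and bars group means, with OSKM-CMs left and Control-CMs right for each gene. Dnajb9, Hyou1 and Hspa5 lie lower in OSKM-CMs and Ero1l lies higher, while Pdia3, Pdia4 and Xbp1 overlap.

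Hspa5, Dnajb9 and Hyou1 were the genes that fell. Hspa5 (ENSMUSG00000026864.7), the most abundant of the 10 per length in both groups, had 153.0, 182.5 and 157.0 scaled RPKM in OSKM-CMs, against 237.2 and 233.2 in Control-CMs. Every OSKM library lay below both controls. Hspa5 averaged 164 ± 16.0 in OSKM-CMs (SD, n = 3) and 235 ± 2.86 in controls (SD, n = 2), a log2 fold change of -0.52 (SE 0.12; limma adjusted p = 0.0141). Dnajb9 (ENSMUSG00000014905.3), its J-domain partner, had 12.0, 12.7 and 10.9 scaled RPKM in OSKM-CMs and 21.9 and 19.9 in controls, again without overlap. Dnajb9 fell by 0.77 on the log2 scale (SE 0.13; limma adjusted p = 0.00455). It rested on 62 to 74 reads in each OSKM library and 127 and 114 in the controls. Hyou1 (ENSMUSG00000032115.7), the nucleotide exchange factor, had 6.44, 9.60 and 8.46 scaled RPKM in OSKM-CMs and 13.15 and 13.23 in controls. Replicate 1 was the lowest OSKM library for Hyou1 and replicate 2 the highest, and all 3 lay below the controls. Hyou1 fell by 0.65 (SE 0.17; limma adjusted p = 0.0277).

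The calls of Hspa5 and Hyou1 were lost when any of 4 libraries was left out. Hspa5 kept a log2 fold change of -0.47 to -0.60 when any library was left out, but its adjusted p was 0.0567 without OSKM-CMs replicate 1, 0.0578 without OSKM-CMs replicate 3, 0.0616 without Control-CMs replicate 3 and 0.0550 without Control-CMs replicate 5. Hyou1 had adjusted p of 0.0686, 0.0653, 0.0931 and 0.0982 without the same libraries, with log2 fold changes of -0.50, -0.67, -0.65 and -0.64. Dnajb9 passed without any single library, at adjusted p of 0.0310 or lower. In a bulk library, fewer cells of a type and less RNA per cell cannot be told apart.

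Ero1l (ENSMUSG00000021831.7), the oxidase, was the member that rose and the least abundant of the 10 per length in both groups. It had 6.08, 6.30 and 5.65 scaled RPKM in OSKM-CMs and 3.31 and 3.19 in controls, with close replicates and no overlap. Its mean was 1.85-fold higher in OSKM-CMs (log2 fold change 0.72, SE 0.15, limma adjusted p = 0.00897). The call held in all 13 alternatives, and without any single library the adjusted p was at most 0.0404. Its paralogue Ero1lb, which was read at about the filter limit, averaged 1.02 ± 0.183 scaled RPKM in OSKM-CMs and 0.957 ± 0.169 in controls (SD, n = 3 and n = 2) and did not pass (limma adjusted p = 0.884).

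The lectin chaperones lay on opposite sides of no change, and neither passed. Calr (ENSMUSG00000003814.8) had 111.3, 132.9 and 116.6 scaled RPKM in OSKM-CMs and 103.1 and 98.7 in controls. All 3 OSKM libraries were above both controls, with a log2 fold change of 0.25 (95% interval -0.03 to 0.52; limma adjusted p = 0.155). Canx (ENSMUSG00000020368.8) had 109.3, 90.2 and 101.0 in OSKM-CMs and 119.5 and 140.9 in controls. Here all 3 OSKM libraries were below both controls, with a log2 fold change of -0.37 (interval -0.68 to -0.07; limma adjusted p = 0.0665). Calr was thus ahead of Canx in each OSKM library and behind it in each control. Canx passed with limma voom on recovered reads (adjusted p = 0.0290).

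Hsp90b1 (ENSMUSG00000020048.7) had 45.4, 60.3 and 49.4 scaled RPKM in OSKM-CMs and 62.1 and 69.2 in controls. The highest OSKM library was replicate 2, just below the lower control, and the log2 fold change was -0.35 (interval -0.69 to -0.01; limma adjusted p = 0.113). Without OSKM-CMs replicate 2 Hsp90b1 passed, at -0.47 and adjusted p = 0.0290. In a later annotation (GENCODE M21) 10.3% of its exonic bases are shared with 1810014B01Rik on the opposite strand, and the authors' strand setting is not given in the sources used here. For the other 9 genes no opposite-strand gene took more than 0.573% of exonic bases.

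The disulfide isomerases overlapped between groups. Pdia3 (ENSMUSG00000027248.7) had 27.6, 31.0 and 29.7 scaled RPKM in OSKM-CMs and 24.9 and 27.8 in controls (log2 fold change 0.16, interval -0.13 to 0.44, limma adjusted p = 0.369). Pdia4 (ENSMUSG00000025823.8) had 12.0, 15.6 and 13.3 in OSKM-CMs and 16.3 and 10.9 in controls. The 2 controls of Pdia4 lay on either side of all OSKM libraries (log2 fold change 0.02, interval -0.43 to 0.47, limma adjusted p = 0.945). Xbp1 (ENSMUSG00000020484.11) had 18.5, 18.2 and 16.99 scaled RPKM in OSKM-CMs and 17.4 and 21.4 in controls (log2 fold change -0.11, interval -0.42 to 0.21, limma adjusted p = 0.585). Gene-level values do not separate the spliced from the unspliced form of Xbp1, which is the step by which its activity is known to be set.

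By level per length, the order in OSKM-CMs was Hspa5, Calr, Canx, Hsp90b1, Pdia3, Xbp1, Pdia4, Dnajb9, Hyou1 and Ero1l, where Pdia4 and Dnajb9 overlapped between libraries. In controls it was Hspa5, Canx, Calr, Hsp90b1, Pdia3, Dnajb9, Xbp1, Pdia4, Hyou1 and Ero1l, where Dnajb9 overlapped Xbp1 and Pdia4 overlapped Hyou1. Hspa5 made up 30.5% to 32.6% of the summed RPKM of the 10 genes in OSKM-CMs and 38.3% and 36.5% in controls. Calr made up 22.2% to 23.8% in OSKM-CMs and 16.7% and 15.5% in controls.

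The sign of several of these differences depended on the scaling. The mitochondrial genome contributed a read share of 9.76% to 11.1% per OSKM library, against 21.2% and 24.7% in controls, and TMM factors were 1.11 to 1.14 in OSKM-CMs and 0.884 and 0.798 in controls. Without TMM, on library totals alone, the median of all tested genes was 0.36 on the log2 scale and 36.5% of genes were called higher and 5.96% lower. On that scale 3 of the 10 genes were higher, Ero1l (1.05, limma adjusted p = 0.00140), Calr (0.66, 0.00459) and Pdia3 (0.56, 0.00875). None of the 10 was called lower by limma on library totals alone, where 1 of them, Dnajb9, was lower at an unadjusted p below 0.05. Hspa5 then had a log2 fold change of -0.10 and Canx, Hsp90b1 and Xbp1 had positive values of 0.042, 0.066 and 0.29. With totals that leave out the mitochondrial genome, a scaling chosen after the data were seen, Ero1l (0.88) and Calr (0.45) were higher and Dnajb9 (-0.58) was lower, against 23.9% and 9.39% of all genes. The part of the mitochondrial share in the differences was not tested.

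**Figure D2:**
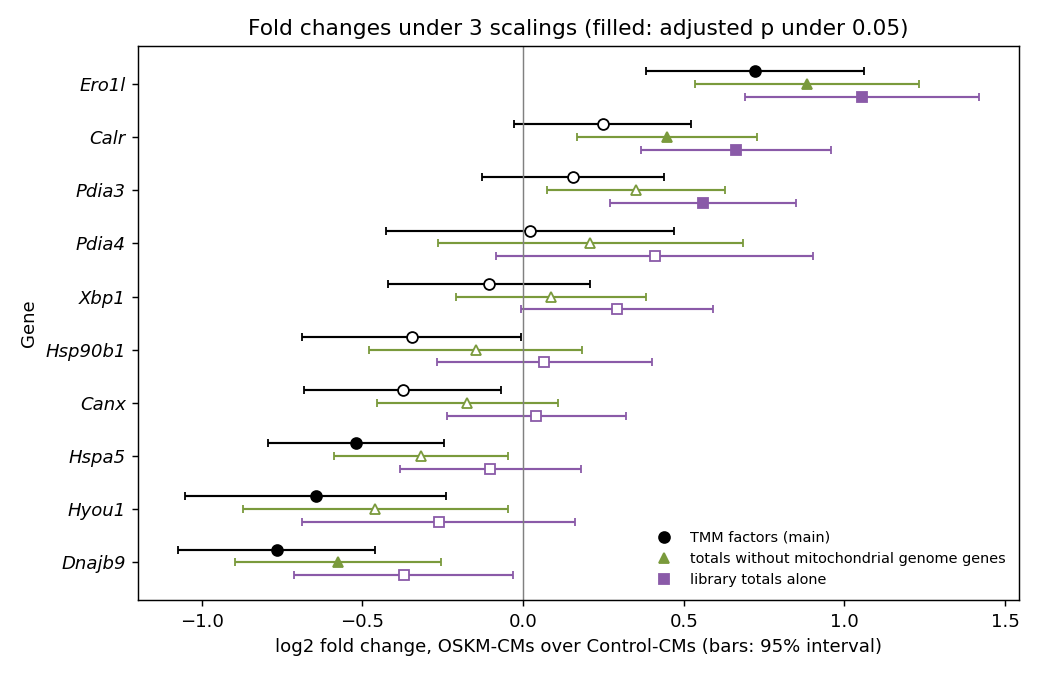
Log2 fold changes of the 10 genes, OSKM-CMs over Control-CMs, under 3 scalings of the libraries; bars are 95% intervals and filled symbols have an adjusted p below 0.05. Ero1l is filled under all 3, and Hspa5 and Hyou1 only with TMM factors. The order of the 10 genes is the same under each, because a change of scaling shifts all genes by a similar amount.

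Ratios of genes within a library are free of the scaling, and 12 were computed. Calr stood at 0.727, 0.728 and 0.743 of Hspa5 in OSKM-CMs and at 0.434 and 0.423 in controls. Pdia3 stood at 0.181, 0.170 and 0.189 of Hspa5 in OSKM-CMs and at 0.105 and 0.119 in controls. Both ratios were higher in every OSKM library, by 0.77 and 0.68 on the log2 scale. Ero1l over Hspa5 was 0.0397, 0.0345 and 0.0360 in OSKM-CMs and 0.0140 and 0.0137 in controls, a log2 difference of 1.41. The ratio of Calr to Canx was 1.02, 1.47 and 1.15 in OSKM-CMs and 0.862 and 0.701 in controls. Dnajb9 and Hyou1 were lower relative to Hspa5 in every OSKM library than in either control, with log2 differences of -0.29 and -0.19. Hsp90b1 and Canx relative to Hspa5, and Pdia3 relative to Calr, overlapped between groups. Exact permutation tests of these ratios, 2-sided with 3 against 2 libraries, cannot go below p = 0.2. That value was reached by the 9 ratios without overlap (0.267 after Benjamini-Hochberg adjustment), and none could pass. Most of the 12 ratios have Hspa5, a gene called lower, as the denominator. By scaled RPKM, Pdia3, Pdia4 and Xbp1 overlapped between groups, while their ratios to Hspa5 did not. The share without overlap among other pairs of genes was not computed.

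**Figure D3:**
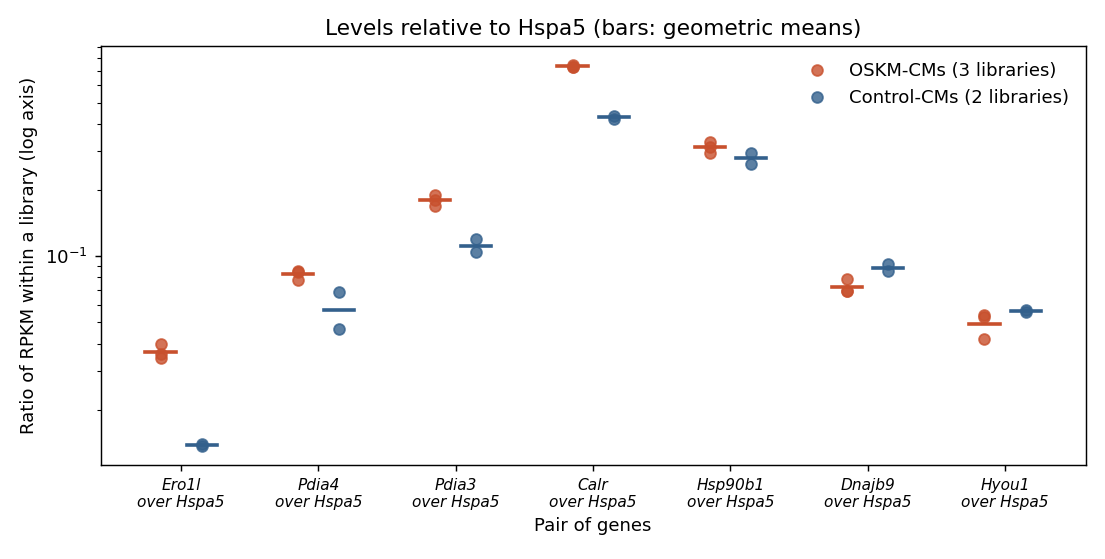
RPKM of 7 genes divided by that of Hspa5 in the same library (log axis); points are libraries, bars geometric means, OSKM-CMs left and Control-CMs right. The ratios of Ero1l, Pdia4, Pdia3 and Calr to Hspa5 lie higher in all OSKM libraries, and that of Hsp90b1 overlaps.

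The authors' deposited table, which lists 12446 genes, called 16.4% of them higher and 15.4% lower at an FDR below 0.05. In that table Dnajb9 (log2 fold change -0.79, FDR 0.00106), Hspa5 (-0.52, FDR 0.00203), Hyou1 (-0.70, FDR 0.00551) and Canx (-0.38, FDR 0.0416) were lower, and Ero1l (0.90, FDR 0.00245) was higher. Canx is the member called there and not by limma on scaled RPKM.

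The signalling arms of the unfolded protein response were read beside the chaperones. Counts in this and the next lists stand beside 15.9% of all tested genes higher and 14.3% lower, and on library totals alone beside 36.5% higher and 5.96% lower. Among 21 tested sensors and transducers, 5 rose (23.8%), 2 fell (9.52%) and 14 did not pass, with a median log2 fold change of 0.34, and on library totals alone 12 were higher and 1 lower. Of the sensors, Atf6 averaged 27.5 ± 1.34 scaled RPKM in OSKM-CMs and 30.04 ± 4.65 in controls (SD, n = 3 and n = 2). Ern1 (Ire1) averaged 1.39 ± 0.267 in OSKM-CMs and 1.86 ± 0.181 in controls, and Eif2ak3 (Perk) 2.83 ± 0.304 in OSKM-CMs and 2.03 ± 0.324 in controls. None of these 3 passed, though Eif2ak3 did on library totals alone (0.63, adjusted p = 0.0296). Atf4, the transcription factor translated downstream of Perk, had 58.9, 63.3 and 52.9 scaled RPKM in OSKM-CMs and 36.1 and 35.6 in controls. Atf4 rose by 0.68 (SE 0.12; limma adjusted p = 0.00524), a call that held in all 13 alternatives. D10Wsu52e (Rtcb), the RNA ligase known to join the exons of spliced Xbp1, rose by 0.99 and Map3k5 (Ask1), a stress kinase, fell by 0.94, and both calls held in all 13 alternatives, with Map3k5 at -0.56 on library totals alone. Creb3 and Creb3l2, ER-anchored transcription factors, rose by 0.64 and 0.69, and Tmbim6, an ER membrane protein that restrains cell death, fell by 0.55. These last calls were lost without some single libraries, with adjusted p of up to 0.0879, 0.117 and 0.105, and that of Tmbim6 also on library totals alone (-0.14, adjusted p = 0.490) and on totals that leave out the mitochondrial genome (-0.35, 0.0984).

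Targets of the Perk and Atf4 branch were called in both directions, with the lower share below that of all tested genes. Of 32 tested, 13 rose (40.6%, against 15.9% of all tested genes), 4 fell (12.5%, against 14.3%) and 15 did not pass. The median log2 fold change was 0.43. On library totals alone 19 were higher and 3 lower. Asns, asparagine synthetase, had 58, 50 and 60 reads in OSKM-CMs, against 11 and 0 in controls. Mthfd2, a mitochondrial folate enzyme, had 34, 36 and 61 reads in OSKM-CMs, against 8 and 3 in controls, and the amino acid transporter Slc7a5 had 34, 27 and 42 in OSKM-CMs and 2 in each control. These 3 genes rose (limma adjusted p = 0.00277, 0.00245 and 0.000988), and with so few control reads the size of the change is imprecise. Aldh18a1, an enzyme of proline synthesis, rose by 1.79. Atf4 itself stands in both lists. The 4 that fell were the lipoprotein receptor gene Vldlr (by 1.51), the transcription factor Cebpb (1.35), Vegfa (0.96) and Gpt2, an alanine aminotransferase (0.82). At an unadjusted p below 0.05, 14 of the list were higher and 6 lower, the latter including Atf3 and Stc2. Limma voom called 13 higher and 5 lower, Stc2 among the 5. The lowest log2 fold change of the list, -1.52, was that of a gene that did not pass. The Gpt2 call was lost without each of 4 libraries, with adjusted p of up to 0.0768, and on library totals alone. Ddit3 (Chop), the transcription factor of prolonged ER stress, had 19.4, 20.3 and 14.3 scaled RPKM in OSKM-CMs and 14.9 and 6.46 in controls and did not pass (log2 fold change 0.79, limma adjusted p = 0.122). Without Control-CMs replicate 3 Ddit3 passed, at 1.34 and adjusted p = 0.0101, as it did on library totals alone (1.17, 0.0377), whereas without Control-CMs replicate 5 its log2 fold change was 0.25 (0.472).

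Among further ER oxidoreductases 2 of 21 tested rose (9.52%), 2 fell (9.52%) and 17 did not pass, and on library totals alone 7 were higher and 0 lower by limma. Qsox1, a sulfhydryl oxidase, rose 3.55-fold, with 18.3, 15.2 and 21.1 scaled RPKM in OSKM-CMs and 4.97 and 5.28 in controls (limma adjusted p = 0.000529). P4hb, the founding disulfide isomerase, averaged 99.3 ± 15.5 in OSKM-CMs and 79.9 ± 3.71 in controls (SD, n = 3 and n = 2), and Pdia6 averaged 18.9 ± 3.53 in OSKM-CMs and 21.9 ± 1.06 in controls. Neither passed, but P4hb did without OSKM-CMs replicate 2 (0.42, adjusted p = 0.0343) and on library totals alone (0.71, 0.00850). Sep15 (0.50) was higher and Qsox2 (-0.61) lower, calls lost without each of 4 libraries with adjusted p of up to 0.172 and 0.192. Sep15 was also lost with 0.1 added before logs (0.0509) and with no filter on low values (0.0512), and Qsox2 on totals that leave out the mitochondrial genome (0.118). Txndc15, a thioredoxin-domain membrane protein, fell by 0.63, a call that held without any single library and was lost, as was that of Qsox2, on library totals alone (-0.23, adjusted p = 0.215).

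Of 33 further chaperones and cochaperones tested, 3 rose (9.09%), 2 fell (6.06%) and 28 did not pass, and on library totals alone 12 were higher and 1 lower. Lrpap1, the escort of lipoprotein receptors, rose by 1.39, the calcium-binding protein Calu by 0.59 and the lectin Mlec by 0.52. Calr3, a calreticulin paralogue, fell by 1.18 and Dnajb12, a membrane J-protein, by 0.40. The calls of Lrpap1 and Calr3 held in all 13 alternatives. Calu was lost without Control-CMs replicate 3 (adjusted p = 0.0547), Mlec without each of 3 libraries (up to 0.0749) and Dnajb12 without each of 5 (up to 0.146), on library totals alone (0.946) and on totals that leave out the mitochondrial genome (0.243). The BiP cochaperones Dnajb11 (log2 fold change 0.36, limma adjusted p = 0.0902) and Dnajc3 (-0.17, 0.431) did not pass, nor did the secreted factor Manf (0.23, 0.462) or Sdf2l1 (0.43, 0.237). On library totals alone Dnajb11 (0.75, adjusted p = 0.00716) and Sdf2l1 (0.75, 0.0408) passed. Serpinh1 (Hsp47), the collagen chaperone, had 80.4, 122.5 and 81.3 scaled RPKM in OSKM-CMs and 95.95 and 75.5 in controls, which overlap.

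Degradation of misfolded ER proteins had 3 of 35 tested genes higher (8.57%), 5 lower (14.3%) and 27 not passing, shares at or below those of all tested genes. On library totals alone 12 were higher and 1 lower. The ubiquitin-conjugating enzyme Ube2g2 rose by 1.30 and the lectin Os9 by 0.95, while the ligase gene March6 fell by 0.82, and these calls held in all 13 alternatives. March6 was at -0.41 on library totals alone (limma adjusted p = 0.0490). Stub1, a ubiquitin ligase, fell by 0.87, the lectin Erlec1 by 0.80 and Selk, a selenoprotein of the ER membrane, by 0.67, each lost without Control-CMs replicate 3 (adjusted p = 0.0736, 0.0523 and 0.0661) and on library totals alone (0.0873, 0.0691 and 0.222). Ubxn4 rose by 0.48, a call lost without each of 4 libraries (up to 0.106). Herpud1, an ER stress target, averaged 45.3 ± 10.4 scaled RPKM in OSKM-CMs and 68.5 ± 7.51 in controls (SD, n = 3 and n = 2; log2 fold change -0.61, limma adjusted p = 0.0503), and it passed with limma voom (adjusted p = 0.0150) and when OSKM-CMs replicate 2 was left out (-0.78, 0.0115). Sel1l had a log2 fold change of 0.01.

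**Figure D4:**
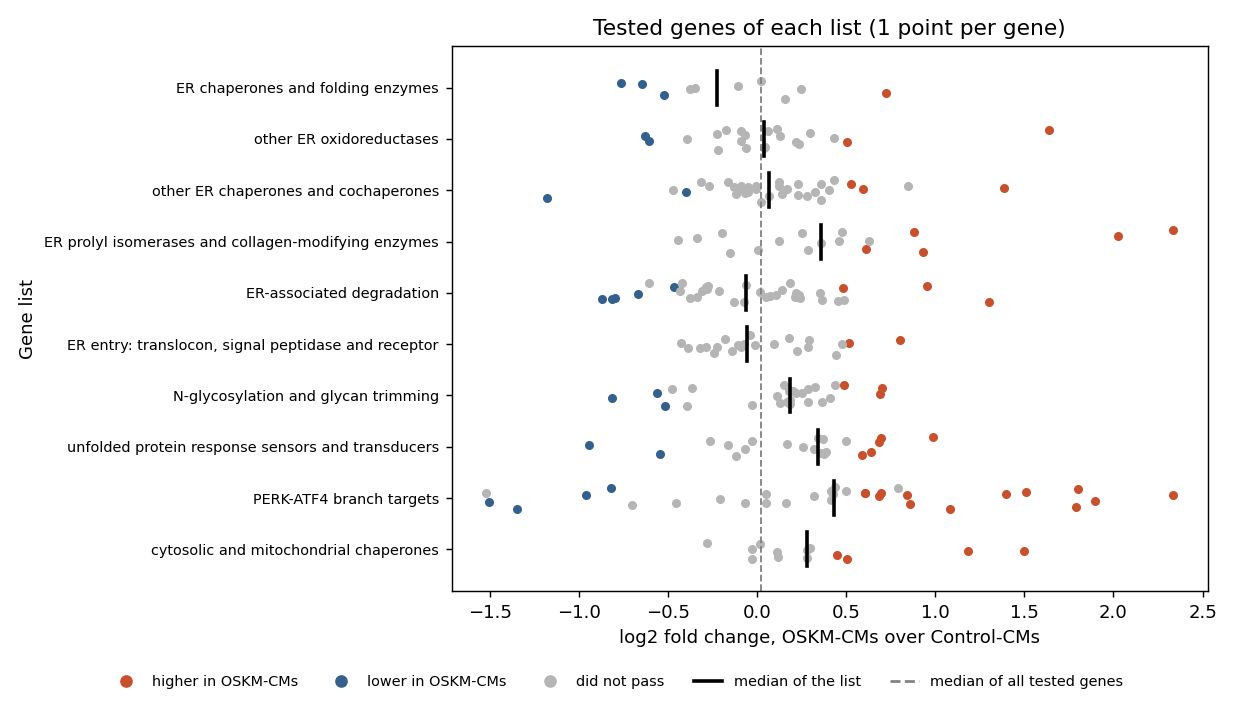
Log2 fold changes, OSKM-CMs over Control-CMs, of every tested gene in 10 lists of ER and chaperone genes; each point is a gene, coloured by its call, black bars are list medians and the dashed line is the median of all tested genes. The 10 ER chaperone and folding enzyme genes have the lowest median, -0.23, and Perk and Atf4 targets the highest, 0.43.

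The prolyl isomerases and collagen-modifying enzymes of the ER had 5 of 17 tested genes higher (29.4%), 0 lower by limma and 12 not passing (median 0.36), and on library totals alone 10 were higher. At an unadjusted p below 0.05, 2 were lower, and limma voom called 1 lower, Fkbp9. Fkbp11, a prolyl isomerase, had 14, 13 and 13 reads in OSKM-CMs, against 0 and 2 in controls, and Leprel1, a collagen prolyl hydroxylase, had 45, 50 and 43 in OSKM-CMs, against 6 and 0 in controls. Plod1, a lysyl hydroxylase, rose by 0.93, a call that held in all 13 alternatives, and Ppic, a cyclophilin, by 0.88, a call lost without each of 3 libraries (adjusted p up to 0.0908). Fibroblasts make much of the collagen of the heart. Of 14 fibroblast and matrix markers 12 were in the table and 11 were tested, of which 5 were higher and 1 lower, and their summed level was 269.7, 129.1 and 255.2 scaled RPKM in OSKM-CMs and 162 and 79.6 in controls, which overlap. Col3a1 was higher by 2.00, a call that held in all 13 alternatives. Limma voom called 2 of the 11 higher. None of the 12 was at 0 in both controls. Endothelial markers had 2 of 11 lower and 0 higher by limma. At an unadjusted p below 0.05, 5 were lower and 0 higher, and limma voom called 4 lower and 0 higher. They summed to 46.1 to 96.5 in OSKM-CMs and 140.3 and 106.8 in controls. Smooth muscle and pericyte markers had 3 of 10 higher and 1 lower. Of 5 leukocyte markers 0 passed by limma, at an unadjusted p or with voom. Cardiomyocyte markers, all 12 of them tested, had 9 lower and 1 higher, with sums of 22126 to 25469 in OSKM-CMs and 36213 and 39222 in controls. On library totals alone 6 of them were lower and 3 higher. The marker called higher was Mybpc3, which rose by 0.62, and by 1.04 on library totals alone. The sarcoplasmic calcium genes Ryr2, Pln and Atp2a2 fell by 1.53, 1.39 and 1.33. Their calls held in all 13 alternatives, with -1.11, -0.97 and -0.91 on library totals alone. The part of these cells in the values of the chaperone and folding enzyme genes was not tested.

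The 13 tested genes with the ER stress response element in a promoter window, out of 37 such genes, were described as a group chosen by sequence alone. Of them 2 were lower, Hspa5 and Acacb, an acetyl-CoA carboxylase, 0 were higher by limma and 11 did not pass. Of all tested genes 14.3% were lower and 15.9% higher, so the lower count is near the share of all genes. Hspa5 and the other 3 chaperones shown above are among the 13, so the group is not separate from the members. The median log2 fold change of the 13 was -0.17, against 0.02 for all tested genes. On library totals alone it was 0.17, against 0.36. On that scale 2 were called higher and 1 lower, where 36.5% of all tested genes were higher and 5.96% lower. At an unadjusted p below 0.05 none was higher by limma on scaled RPKM, and limma voom called 0 higher and 3 lower. Besides the 4 chaperones shown above they held Creld2, Dnajc3, Pdia6 and Syvn1, further genes of ER folding and degradation, which had log2 fold changes of -0.22 to -0.12. They also held Alg12, an enzyme of N-glycosylation, at 0.36 (limma adjusted p = 0.170). On library totals alone Dnajc3 was at 0.22 and Pdia6 at 0.18.

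By the root mean square difference of centred log2 values over the 5 libraries, the 5 tested genes nearest to Hspa5 were Apoo (0.0181), Art5, Maf1, 2010305A19Rik and Pigu (0.0296). Of the other 9 genes the nearest were Hsp90b1, at rank 434, Hyou1, at 549, and Dnajb9, at 802 among the tested genes, and the farthest was Ero1l, at 9057.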

How the data were processed

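Library values were deposited by the authors as RPKM, reads per kilobase set against the reads over the listed genes. No header gives this unit, and it was read off the values. The deposited table also holds the authors' log2 fold change, likelihood-ratio score, p-value and FDR. Per the submitters' processing notes, the tools were STAR 2.5.3, CASAVA 1.8.2, HTSeq, Trimmomatic and FastQC, with build mm9. Annotation and strand setting are not given in the sources used here.

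Whole reads were recovered from the RPKM steps (12446 genes, 100% whole within 0.0001 reads), where a common factor was settled from the authors' average abundance for 440 genes. Listed genes held 2691798 to 2780764 reads in each OSKM library and 3519667 and 3861851 in controls. These reads gave the TMM factors (30% of log ratios and 5% of abundances trimmed), and limma voom on them called 3786 genes. The main test kept the 10915 genes whose mean RPKM reached 1 and used limma 3.58.1 (R 4.3.3), 2-sided, on log2 of scaled RPKM plus 1, with trend and robust moderation. The added 1 understates changes of low genes. The fit was tested on simulated data. Intervals are 95%.

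The text names the 10 genes, 15 further genes whatever their values, the 5 nearest to Hspa5 and, from each list, called genes among the 4 largest changes in each direction. Fkbp9, Srpr, Hspa9, Atf3, Stc2, Acacb, Alg12, Creld2 and Syvn1 stand outside this rule and were named after their values were seen. Members and lists were chosen with earlier results of these data known.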

Additional observations from a re-analysis of the deposited data

How the results depend on the processing

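Ero1l was the only member called higher, 1 gene, under each alternative except the scalings on library totals. There 3 genes were called higher with library totals alone and 2 with totals that leave out the mitochondrial genome (chosen after seeing the data). The 3 members called lower became 0 with library totals alone and 1, Dnajb9, without the mitochondrial genome. Leaving out each library in turn gave 1 to 4 members lower and 1 higher throughout. Upper-quartile scaling, other pseudocounts, other filters and limma voom gave 3 or 4 lower. Signs turned for 4 members outside the calls. On library totals alone Canx was 0.042, Hsp90b1 0.066 and Xbp1 0.29. Xbp1 was 0.087 with totals that leave out the mitochondrial genome and 0.035 without Control-CMs replicate 5. Pdia4 was -0.077 without OSKM-CMs replicate 2 and -0.25 without Control-CMs replicate 5. Of the values for single members under 13 alternatives, 105 kept direction and call, 13 lost the call, 5 gained it and 7 turned sign. Over all genes, 3298 passed, with 2216 to 3070 when a library was left out and 52.8% of calls higher; that share was 86.0% with library totals alone and 71.8% with totals that leave out the mitochondrial genome. The cause of these changes was not tested. Where a library was left out of the controls, the lone control is assumed to vary like the other group. No paired analysis was possible because replicate numbers overlap between groups in 1 case, number 3. Few reads limit Ero1l (42 to 84 per library) and Dnajb9 (62 to 127).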

Other observations

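Chaperones outside the ER were read in the same fit. Of all tested genes 15.9% were higher and 14.3% lower. Of 13 cytosolic and mitochondrial chaperones tested, 4 rose, 0 fell by limma and 9 did not pass (median log2 fold change 0.28). At an unadjusted p below 0.05, 1 was lower, Hspa9, and limma voom called 0 lower. Hsp90aa1, the inducible cytosolic Hsp90, had 234.3, 281.0 and 238.6 scaled RPKM in OSKM-CMs and 101.1 and 76.3 in controls, a 2.83-fold difference (limma adjusted p = 0.000570), while its ER relative Hsp90b1 had a log2 fold change of -0.35 that did not pass. Hsph1, a nucleotide exchange factor of cytosolic Hsp70, rose by 1.18, and both calls held in all 13 alternatives. Hspa8, the constitutive cytosolic Hsp70, rose by 0.50 and Hspa4, a nucleotide exchange factor, by 0.45, calls lost without each of 2 and 3 libraries (adjusted p up to 0.0818 and 0.0910).

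Entry into the ER had 2 of 22 tested genes higher, 0 lower by limma and 20 not passing (median -0.06). At an unadjusted p below 0.05, 2 were lower, and limma voom called 1 lower, Srpr. Sec61a1, the pore of the translocon, rose by 0.80, a call that held in all 13 alternatives, and Ssr4 by 0.52, lost without each of 4 libraries (adjusted p up to 0.0779). N-glycosylation had 3 of 27 higher, 3 lower and 21 not passing. Magt1, an oligosaccharyltransferase subunit, fell by 0.82, a call that held in all 13 alternatives, with -0.43 on library totals alone, while the catalytic subunit Stt3b rose by 0.49, lost without each of 4 libraries (adjusted p up to 0.157). With library totals alone 16 of the 27 N-glycosylation genes were higher and 1 lower, against 36.5% and 5.96% of all genes.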
